A study of Rattus norvegicus with 33 samples.

Results

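Integrins and laminins are the cell surface receptors and the matrix proteins by which mammary cells attach to the basement membrane, and their transcripts were followed through 6 stages of rat mammary gland development. The genes were chosen by symbol: Itga or Itgb followed by a digit or letter, or Lama, Lamb or Lamc followed by a digit, on probe sets listed with a single gene symbol. This gave 36 of 18166 genes, each read by 1 probe set, the brightest over all arrays where a gene had several (Lama4 had 2). Of the 36 genes, 32 were above the median of single-symbol probe sets, a log2 value of 7.645, in at least 3 arrays and were tested with 10986 genes in all. The 4 left out were Itga10, at 5.75 to 6.5 log2, Itga2b, at 5.99 to 7.02, Itgad, at 6.17 to 7.58, and Itgb1bp2, at 6.35 to 7.67. By known role, 5 genes encode integrin chains typical of epithelium, 10 encode broadly expressed or stromal integrin chains, 8 encode leukocyte or platelet chains and 9 encode laminin chains. The other 4 (Itgb1bp1, Itgb1bp2, Itgb3bp and Itgbl1) share the name pattern but are not subunits. Itgav, Itgb3, Itgae, Lamb1 and Lamb4 were not analysed here.

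The tissue was the caudal mammary glands numbered 5, left and right, of female Sprague-Dawley rats, with total RNA hybridised to 33 Affymetrix whole-transcript arrays. All animals were controls of a study of chemicals and received olive oil, the vehicle, by gavage. The groups were pre-pubertal rats at postnatal day 21 (10 arrays), peri-pubertal rats at day 42 (5 arrays), pubertal rats at day 63 (5 arrays), rats at the end of lactation on lactation day 28, postnatal day 146 (3 arrays), and adult parous and age-matched nulliparous rats at day 181 (5 arrays each). Each group was collected on a single day, so stage and day of collection cannot be told apart, and the estrous phase was not matched. The series text counts 10 pre-pubertal animals while the sample notes speak of 5 animals at each stage, so that arrays at day 21 may share animals, in which case p-values for that group would be too small. No 2 arrays held identical values. Arrays are numbered within a group in the order of deposit.

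Each integrin is a dimer of an alpha and a beta chain. Laminins are trimers of an alpha, a beta and a gamma chain that polymerise into the sheet underlying epithelium, endothelium, muscle and fat cells. In the mammary gland, ducts and alveoli rest on laminin, and α6β4 anchors basal cells in hemidesmosomes while α3β1 and α6β1 also bind laminin. Integrins built on the β2 and β7 chains are carried by leukocytes and bind counter-receptors on other cells.

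Batch weighed heavily on these genes. The labels give 3 batches: batches 1 and 2 cross day 21, day 42 and day 63, all lactation arrays are of batch 2, and the adult groups have 3 arrays each of batch 1 and 2 each of batch 3. Batch 3 is also the Zymo extraction kit, which the labels say was used for the fattier adult glands, so that batch, kit and that property cannot be told apart. In a linear model with stage and batch, batch 3 was lower than batch 1 for 24 of the 32 genes and higher for 3, with a median size of 1.28 log2 against 0.751 over all genes tested (77.4% of which were called). Itgb4 fell by 2.63 log2 in batch 3, Lamb2 by 2.57, Lamc1 by 2.38 and Lama4 by 2.36, while Itgb1bp1 was higher by 1.52. Batch 2 differed from batch 1 for 14 of the 32 genes, with a median size of 0.248 log2 against 0.269 over all genes (56.6% of which were called). Adult values are therefore given by batch, and every difference below comes from the fit with batch as a term.

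Cell content was read from marker lists, as the mean log2 of each list per array. Luminal epithelial markers ranged from 6.85 to 9.46 over the day 21 arrays, from 9.35 to 9.93 at day 42, from 9.57 to 10.01 at day 63, from 10.08 to 10.78 in lactation, from 9.35 to 9.87 in nulliparous and from 9.44 to 9.79 in parous glands. Lymphocyte markers ranged from 6.86 to 10.11 at day 21, from 6.82 to 8.24 at day 42, from 6.98 to 8.60 at day 63, from 7.27 to 7.52 in lactation, from 7.39 to 9.71 in nulliparous and from 7.25 to 10.23 in parous glands. Fibroblast markers ranged from 11.52 to 12.39 at day 21, from 12.07 to 12.66 at day 42, from 11.99 to 12.36 at day 63 and from 10.05 to 10.71 in lactation. They ranged from 10.73 to 11.82 in nulliparous and from 10.49 to 11.63 in parous glands. In 5 arrays the mean of the skeletal muscle markers was above 9 (day 21 array 10, day 42 arrays 1 and 4, lactation array 3 and nulliparous array 5). These are whole glands, so fewer cells of a type and less RNA per cell cannot be told apart.

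Stage differences were found for 29 of the 32 tested genes (limma F test over stages, Benjamini-Hochberg adjusted p under 0.05), where 65.9% of all genes tested were called. The exceptions were Itgam (adjusted p = 0.279), Lama5 (0.253) and Itgb3bp (0.107). The 6 comparisons between stages located these differences, and they are shown together in the heat map of differences. From day 21 to day 42, 9 genes rose and 9 fell, 18 of 32 against a background of 32.3% (17.1% up and 15.2% down). From day 42 to day 63, 1 gene fell, where 1.22% of all genes were called and 0.501% fell. Nulliparous glands differed from day 63 for 2 genes, both lower, where 4.27% of all genes were called and 2.39% were lower. Lactation differed from day 63 for 17 genes, 5 higher and 12 lower, against 40.7% of all genes (23.8% higher and 16.9% lower). Parous glands differed from lactation for 12 genes, 6 higher and 6 lower, against 32.9% (12.1% higher and 20.7% lower). Between parous and nulliparous glands none of the 32 genes was called, with 0.0182% of all genes called. The comparisons with many calls here were also those in which many genes of the whole array were called. Arrays of the compared groups did not overlap for 4 genes at day 42 against day 21 (5.01% of all genes), 1 at day 63 against day 42 (2.26%), 3 in nulliparous against day 63 glands (7%), 20 in lactation against day 63 (35.9%), 7 in parous against lactation (27.8%) and 0 in parous against nulliparous glands (0.173%). Comparisons that have a stage in common share its arrays, so their values are given side by side and are not independent.

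**Figure D1:**
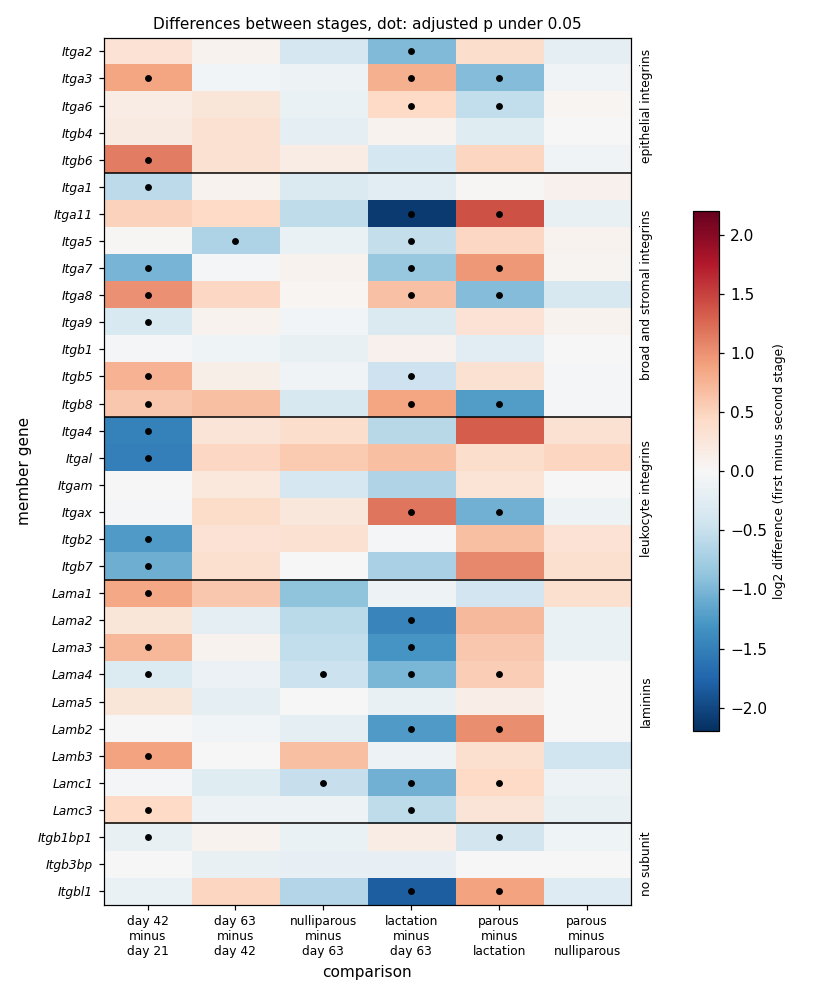
Log2 differences of the 32 tested integrin and laminin genes (rows, by role) in 6 comparisons between stages (columns), each the first stage minus the second from the model with batch. Red is higher, blue is lower and dots mark an adjusted p under 0.05. The columns for day 42 against day 21 and for lactation against day 63 hold 18 and 17 dots, and the column for parous against nulliparous holds none.

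Promoters are shown for 4 genes on which the results below turn: Lama3, which rose from day 21 to day 42 and fell in lactation, Lamc1, the common gamma chain that fell in lactation, and Itgb8 and Itgax, which rose in lactation. RefSeq promoter windows of the rat GRCr8 assembly, 250 bases before to 50 bases after the annotated start, were listed for 29 of the 36 genes. They were searched on both strands for the AP-1 site TGANTCA, the STAT site TTCNNNGAA, the ETS core GGAAGT and the GC box GGGCGG, and capitals mark the matches. The sequences are read 5′ to 3′ on the strand of the gene.
Lama3 (chr18:3952517-3952816, plus strand): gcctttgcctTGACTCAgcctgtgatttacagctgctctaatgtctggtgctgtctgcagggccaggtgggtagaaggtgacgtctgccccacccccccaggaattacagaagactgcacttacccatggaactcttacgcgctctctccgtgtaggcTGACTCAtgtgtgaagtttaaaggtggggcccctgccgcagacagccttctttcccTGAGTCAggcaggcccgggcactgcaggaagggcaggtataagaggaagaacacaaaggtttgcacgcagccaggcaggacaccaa
Lamc1 (chr13:68051937-68052236, minus strand): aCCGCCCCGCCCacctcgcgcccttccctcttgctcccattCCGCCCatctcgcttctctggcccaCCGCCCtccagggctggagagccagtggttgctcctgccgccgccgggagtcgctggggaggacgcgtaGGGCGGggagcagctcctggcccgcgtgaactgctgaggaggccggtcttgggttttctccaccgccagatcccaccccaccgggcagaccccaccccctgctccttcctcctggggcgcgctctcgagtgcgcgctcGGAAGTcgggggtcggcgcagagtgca
Itgb8 (chr6:146351196-146351495, minus strand): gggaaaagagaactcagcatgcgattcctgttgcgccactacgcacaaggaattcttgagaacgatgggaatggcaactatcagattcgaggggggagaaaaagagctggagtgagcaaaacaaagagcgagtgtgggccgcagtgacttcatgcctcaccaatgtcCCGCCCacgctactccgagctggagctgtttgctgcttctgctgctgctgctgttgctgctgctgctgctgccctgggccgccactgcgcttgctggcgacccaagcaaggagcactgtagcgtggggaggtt
Itgax (chr1:192149799-192150098, plus strand): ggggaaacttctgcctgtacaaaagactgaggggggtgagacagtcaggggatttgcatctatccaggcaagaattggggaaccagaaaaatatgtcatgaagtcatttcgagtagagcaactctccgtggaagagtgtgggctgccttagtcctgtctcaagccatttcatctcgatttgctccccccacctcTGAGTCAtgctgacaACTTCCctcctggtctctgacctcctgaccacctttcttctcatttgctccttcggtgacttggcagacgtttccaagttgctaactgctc
The Lama3 window held the AP-1 site at 3 places, starting 240, 92 and 36 bases before the start, and Itgax held it once, 56 bases before. Only these 2 of the 29 windows contained it, compared with 7.33% of 33469 windows in the table. Lamc1 held 5 GC boxes, some overlapping, and 1 ETS core, and Itgb8 held 1 GC box. The GC box was in 14 of the 29 windows (33.1% of all), the ETS core in 6 (22.6%) and the STAT site in 5 (8.87%). These are letter matches in a fixed window and say nothing of binding.

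Among epithelial integrins, Itga3 and Itgb6 rose from day 21 to day 42. Itga3 encodes the α3 chain of the laminin receptor α3β1. It was 7.43 at the lowest, 8.08 at the median and 9.15 at the highest over the 10 day 21 arrays, and read 9.27, 9.13, 9.08, 8.84 and 8.65 at day 42. The high day 21 value came from array 8, which also had the highest luminal mean (9.46) and the lowest lymphocyte mean (6.86) of that group. The other 9 day 21 arrays read at most 8.54, below every day 42 array. The difference was 0.86 ± 0.15 log2 (SE, 10 and 5 arrays; 1.82-fold, limma adjusted p = 9.28e-05), with 0.73 within batch 1 and 1.06 within batch 2. Itgb6, whose product pairs with αv on epithelial cells, ranged from 5.78 through a median of 7.54 to 8.56 at day 21 and from 8.55 to 8.86 at day 42. Its day 21 arrays spread far more widely than the day 42 arrays, and the groups touched at the edge. Itgb6 rose by 1.13 ± 0.28 log2 (2.19-fold, limma adjusted p = 0.00268).

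The chains of the hemidesmosome integrin α6β4 were not called at that step. Itga6 differed by 0.16 ± 0.08 log2 (limma adjusted p = 0.0995) and Itgb4 by 0.20 ± 0.13 (0.256), as did Itga2, the collagen receptor chain, by 0.31 ± 0.14 (0.0852).

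In lactation, Itga6 and Itga3 rose against day 63 and Itga2 fell. Itga6 read 11.67, 11.53 and 11.75 in the 3 lactation arrays and 10.93, 11.34, 11.33, 11.27 and 11.18 at day 63, with no overlap. The rise was 0.44 ± 0.11 log2 (3 and 5 arrays; limma adjusted p = 0.00165) and 0.43 within batch 2 alone. Itgb4, its hemidesmosome partner, read 10.04, 10.37 and 10.16 in lactation against 10.16 and 10.22 in the day 63 arrays of the same batch, a difference of 0.07 ± 0.19 (0.784). Only the batch 1 arrays of day 63 were higher for Itgb4, at 10.74 to 11.23. Whether Itga6 and Itgb4 differ from each other in their response was not tested.

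Itga3 read 9.0, 9.87 and 9.28 in lactation, and in the day 63 arrays 8.78 and 8.71 in batch 2 and 8.96, 9.15 and 9.07 in batch 1. It rose by 0.78 ± 0.22 log2 (limma adjusted p = 0.00525). The call depended on lactation array 2, without which the difference was 0.54 (0.0738), and within batch 2 alone it was 0.64 (0.0812). Itga2 read 7.73, 7.52 and 7.26 in lactation, below every day 63 array (7.75 to 8.69), and fell by 0.97 log2 (SE 0.20, adjusted p = 0.000258). Itgb6 differed by -0.39 ± 0.40 (0.456).

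In parous glands, Itga3 and Itga6 were lower than in lactation. Itga6 read 11.36, 11.07 and 10.89 in batch 1 and 9.27 and 9.19 in batch 3, all below lactation, and fell by 0.54 log2 (SE 0.12, limma adjusted p = 0.00146) once batch was taken into account. Itga3 fell by 0.96 log2 (SE 0.25, adjusted p = 0.00417). Lactation and parous arrays share no batch, so this comparison is joined only through the other stages, and no value within a batch exists for it. No epithelial integrin was called between day 42 and day 63, between day 63 and nulliparous glands, or between parous and nulliparous glands. At the first of these steps Itga6 differed by 0.26 ± 0.09 log2 (0.141) and Itgb4 by 0.34 ± 0.15 (0.28), and at the next by -0.14 ± 0.10 (0.484) and -0.20 ± 0.17 (0.599). Itgb4 differed by -0.27 ± 0.21 (0.348) from lactation to parous glands.

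**Figure D2:**
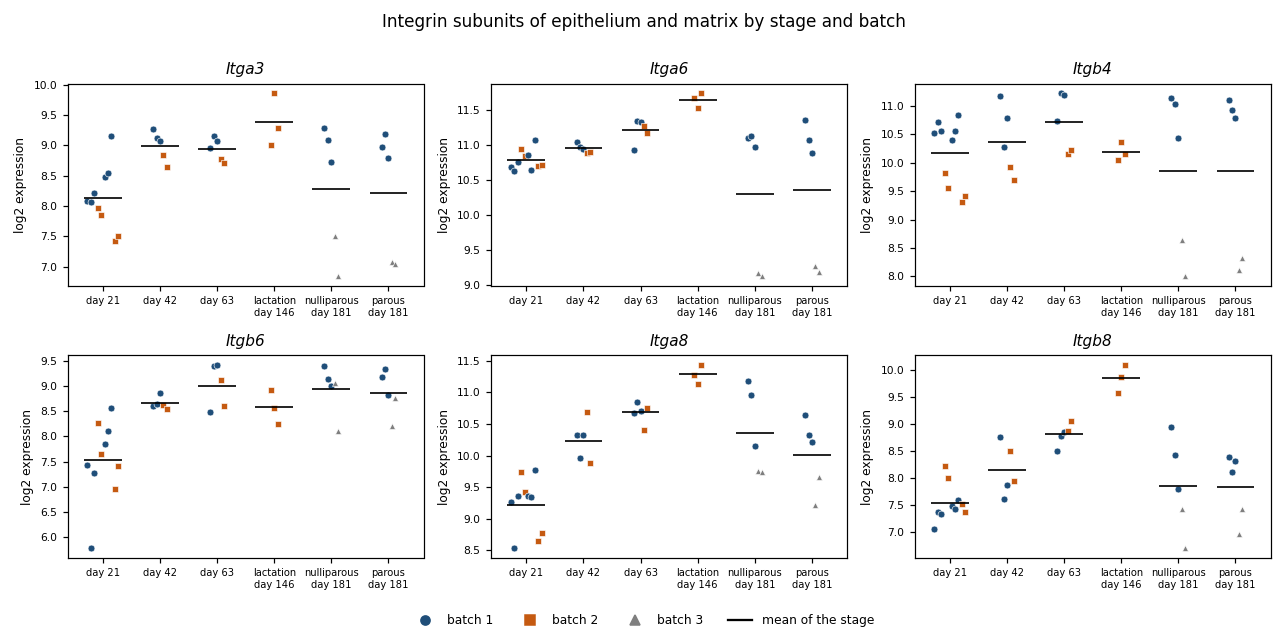
Log2 expression of Itga3, Itga6, Itgb4, Itgb6, Itga8 and Itgb8 by stage, 1 point per array with its batch as colour and shape, and a line at the stage mean. For Itga3, Itga6 and Itgb4 the batch 3 points of the adult groups lie far below batch 1, and the adult means sit between them. The lactation mean is the highest of the 6 stages for Itga3, Itga6, Itga8 and Itgb8.

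Among broadly expressed and stromal integrins, Itga8, Itgb5 and Itgb8 rose from day 21 to day 42 and Itga7, Itga1 and Itga9 fell. Itga8, whose α8β1 integrin binds nephronectin and fibronectin in mesenchyme, ranged from 8.53 through a median of 9.35 to 9.77 at day 21 and read 10.32, 9.96, 10.32, 10.69 and 9.89 at day 42. Every day 42 array was higher, and the difference was 1.01 ± 0.18 log2 (2.02-fold, limma adjusted p = 9.2e-05). Itgb5, the β5 partner of αv, was also higher in every day 42 array, at 10.20 to 10.52 against 9.30 to 9.90. It rose by 0.76 ± 0.11 log2 (adjusted p = 1.06e-05), with 0.69 within batch 1 and 0.87 within batch 2. Itgb8, the β8 partner of αv that activates latent TGF-β, rose by 0.60 ± 0.18 (0.0102), but its groups overlapped. Day 42 arrays 1 and 4, whose muscle markers were above 9, gave its highest values of that group (8.77 and 8.50). The difference was 0.41 (0.0753) without array 1, 0.26 (0.319) without all arrays of high muscle markers and 0.25 (0.417) with the lymphocyte mean as a covariate, but 0.58 (0.0179) with the muscle marker mean as one.

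Itga7, the laminin receptor chain known from muscle, fell in every array. It ranged from 8.83 through a median of 9.27 to 9.76 at day 21 and read 8.43, 8.31, 8.36, 8.29 and 8.03 at day 42, a fall by 1.02 log2 (SE 0.13, 2.02-fold, limma adjusted p = 1.06e-06). The 3 arrays of these groups with muscle markers above 9 did not stand apart for Itga7: day 21 array 10 read 9.19, and day 42 arrays 1 and 4 read 8.43 and 8.29. Itga1, a collagen receptor chain, fell by 0.57 log2 (SE 0.12, adjusted p = 0.000419) and Itga9 by 0.33 (SE 0.11, 0.0186). Without day 42 array 2 or array 3 the Itga9 difference was -0.30 (0.0609) or -0.25 (0.0958). Of the 4 genes whose day 21 and day 42 arrays did not overlap, Itga8, Itgb5, Itga7 and Lamc3, all but Lamc3 were in this group.

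From day 42 to day 63, Itga5 was the gene that fell. It encodes the α5 chain of the fibronectin receptor. The arrays read 9.70, 10.05, 9.81, 9.67 and 9.89 at day 42 and 9.34, 9.04, 9.20, 9.05 and 9.10 at day 63, with no overlap. The fall was by 0.68 log2 (SE 0.13, 1.6-fold, limma adjusted p = 0.00983). The difference was -0.66 within batch 1 (0.155) and -0.71 within batch 2 (0.443), and -0.61 (0.0613) without day 42 array 5. In this comparison 8 of the 32 genes had an unadjusted p under 0.05, as did 14.8% of all genes tested.

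Lactation against day 63 gave the largest fold of the tested integrin chains over the 6 comparisons. Itga11, the fibroblast chain of the collagen receptor α11β1, read 7.59, 7.22 and 7.31 in lactation and 10.16, 9.34, 9.73, 9.28 and 9.29 at day 63. It fell by 2.11 log2 (SE 0.30, 4.32-fold, limma adjusted p = 3.22e-06), and by 1.92 within batch 2. In parous glands it read 8.90, 8.61 and 9.51 in batch 1 and 7.19 and 7.67 in batch 3, and was higher than in lactation by 1.40 ± 0.35 (0.00286). Itga7 read 7.28, 7.34 and 7.17 in lactation against 8.06 to 8.64 at day 63, fell by 0.83 log2 (SE 0.18, 0.000625), and was higher again in parous glands by 0.96 ± 0.21 (0.000812). All parous arrays were above all lactation arrays for Itga7, the batch 3 arrays at 7.45 and 7.52 included.

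Itga5 and Itgb5 also fell in lactation, by 0.53 log2 (SE 0.16, limma adjusted p = 0.00934) and 0.45 log2 (SE 0.16, 0.0264). Neither call held for every array left out. Without lactation array 3 the Itga5 difference was -0.41 (0.0736). For Itgb5 it was -0.41 (0.0721) without day 63 array 5, -0.45 (0.0648) without lactation array 2 and -0.37 (0.117) without lactation array 3. Within batch 2 the difference was -0.66 for Itga5 (0.0251) and -0.45 for Itgb5 (0.0631). With arrays centred on their median that of Itgb5 was -0.36 (0.0866). Without the arrays of high muscle markers both calls were lost (Itga5 -0.40 with 0.107, Itgb5 -0.37 with 0.146).

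Itgb8 and Itga8 went the other way. Itgb8 read 9.57, 9.87 and 10.10 in lactation, above the day 63 arrays at 8.51, 8.78, 8.86, 8.87 and 9.05. The rise was 0.86 ± 0.25 log2 (1.81-fold, limma adjusted p = 0.00813), and 0.89 within batch 2. Parous glands read 8.40, 8.12 and 8.31 in batch 1 and 6.97 and 7.42 in batch 3, and Itgb8 fell by 1.23 log2 against lactation (SE 0.29, 0.00193). Itga8 read 11.28, 11.14 and 11.44 in lactation against 10.41 to 10.85 at day 63, a rise of 0.65 ± 0.26 (0.0417). The Itga8 call was lost when any of 7 of the 8 arrays was left out, with differences of 0.57 to 0.73. Without day 63 array 2 alone the call was kept. In parous glands Itga8 fell by 0.96 log2 against lactation (SE 0.29, 0.013).

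Itgb1 encodes the β1 chain common to most of these receptors. Over all arrays it ranged from 10.74 to 11.88, and its difference was -0.03 ± 0.06 log2 from day 21 to day 42, 0.09 ± 0.09 from day 63 to lactation and -0.23 ± 0.10 from lactation to parous glands (limma adjusted p = 0.067). None of the 6 comparisons called it, while the F test over stages did (0.0047).

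Of the 6 tested leukocyte integrins, 4 fell from day 21 to day 42, where 32.3% of all genes tested were called and 15.2% fell. The myeloid chains Itgam and Itgax were not called. Itgal and Itgb2 encode the chains of LFA-1, the lymphocyte integrin that binds ICAMs. Itgal ranged from 7.72 through a median of 10.20 to 10.63 at day 21 and read 8.01, 8.05, 8.05, 8.03 and 9.03 at day 42. Itgb2 ranged from 7.99 through 9.99 to 10.68 and read 8.28, 8.37, 8.28, 8.21 and 8.87. Day 21 array 8 gave the lowest value of both genes, and its lymphocyte mean of 6.86 was also the lowest of its group. Day 42 array 5 gave the highest of both in its group, with a lymphocyte mean of 8.24 against 6.82 to 7.0 in the other 4 arrays.

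Itgal fell by 1.5 log2 from day 21 to day 42 (SE 0.41, 2.83-fold, limma adjusted p = 0.00578) and Itgb2 by 1.25 (SE 0.36, 0.00873). Itga4, the α4 chain of VLA-4 and of α4β7, fell by 1.49 log2 (SE 0.38, 0.00372), and Itgb7, the β7 chain of gut-homing lymphocytes, by 1.08 (SE 0.30, 0.00616). Lymphocyte markers fell alongside, 15 of 16, with a median difference of -1.99. With the lymphocyte mean as a covariate the differences were 0.09 for Itgal (0.682), 0.15 for Itgb2 (0.395), 0.02 for Itgb7 (0.935) and -0.01 for Itga4 (0.976). Without the arrays of high muscle markers none of the 4 was called, with differences of -1.32 for Itgal (0.0871), -1.12 for Itgb2 (0.0997), -1.28 for Itga4 (0.0767) and -1.01 for Itgb7 (0.0708). In the panels against the lymphocyte mean, these genes rise with it from array to array, although batch 3 arrays lie below the rest for Itgal and Itgb2. The 3 lactation arrays lie high for Itgal (9.67, 9.70 and 9.03) at lymphocyte means of 7.27 to 7.52.

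**Figure D3:**
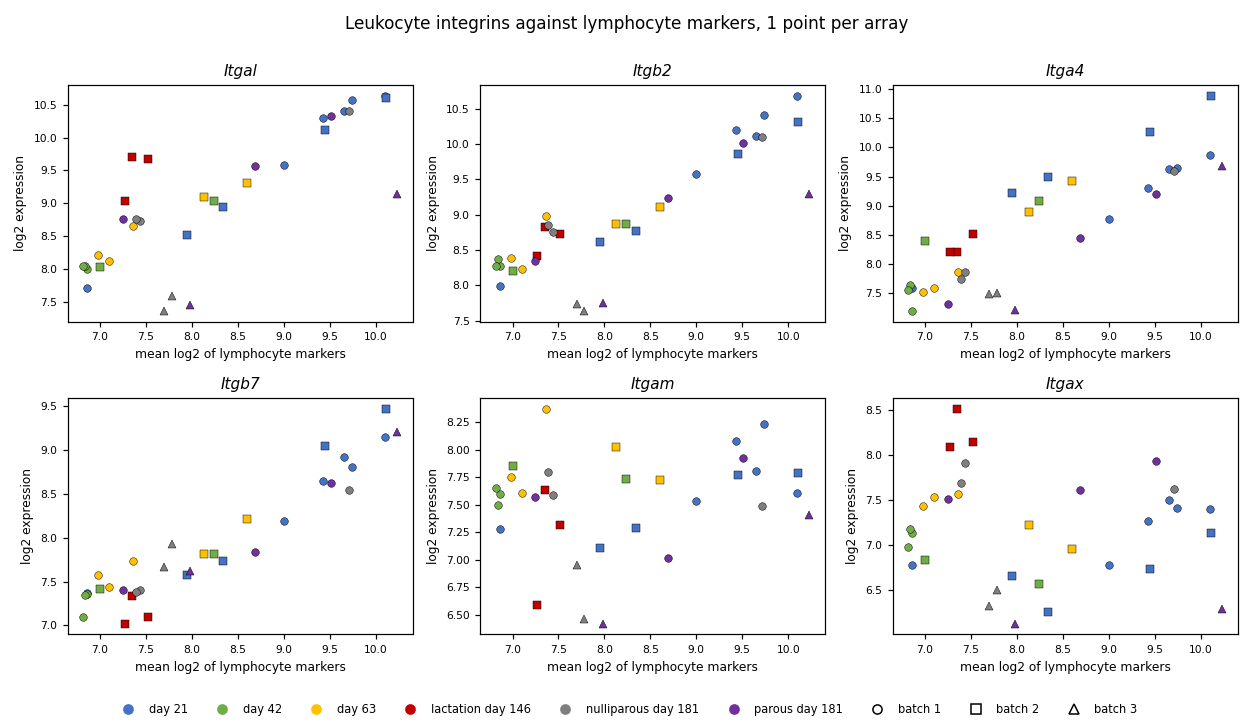
Log2 expression of 6 leukocyte integrin genes against the mean log2 of 16 lymphocyte markers, 1 point per array, with stage as colour and batch as shape. Itgal, Itgb2, Itga4 and Itgb7 climb with the marker mean within batches 1 and 2. The 3 lactation arrays stand above the rest for Itgax at 8.09 to 8.51.

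Itgam and Itgax encode the alpha chains that pair with β2 on myeloid cells. Itgam, of macrophages and neutrophils, was not called in any comparison and differed by 0.01 ± 0.19 log2 from day 21 to day 42 and by -0.66 ± 0.27 from day 63 to lactation (limma adjusted p = 0.0502). Itgax, of dendritic cells and some macrophages, read 8.14, 8.51 and 8.09 in lactation and 7.56, 7.43, 7.53, 6.95 and 7.22 at day 63. It rose by 1.18 ± 0.18 log2 (2.27-fold, adjusted p = 9.08e-06), with 1.16 within batch 2, and no day 63 array reached the lactation arrays. Itgax passed the filter on low values in 6 arrays, the lactation arrays among them, so it lay near the floor elsewhere.

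In parous glands Itgax read 7.61, 7.51 and 7.93 in batch 1 and 6.28 and 6.12 in batch 3, and fell by 1.05 log2 against lactation (SE 0.21, limma adjusted p = 0.000357). Its β2 partner was not called: Itgb2 differed by -0.03 ± 0.51 from day 63 to lactation (0.971) and Itgal by 0.67 ± 0.58 (0.377). Of 10 macrophage markers 1 rose and 2 fell in lactation, with means of 9.16 to 9.59 in lactation and 9.39 to 9.95 at day 63, and their part in the Itgax result was not tested. Itgb7 was lower in every lactation array than in every day 63 array, at 7.02 to 7.33 against 7.44 to 8.21, but its difference of -0.71 ± 0.43 did not pass the test (0.191). The lymphocyte chains were not called at the later steps either. Itga4 differed by 0.28 ± 0.44 from day 42 to day 63 and by 1.33 ± 0.63 (0.106) from lactation to parous glands. From day 42 to day 63 Itgal differed by 0.45 ± 0.47, Itgb2 by 0.31 ± 0.42 and Itgb7 by 0.35 ± 0.34, and from lactation to parous glands by 0.38 ± 0.67, 0.67 ± 0.59 and 1.06 ± 0.49 (0.0959 for Itgb7). Their standard errors are several times those of Itga6, and single arrays of the adult groups ranged from 7.37 to 10.40 for Itgal.

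Laminin alpha chains carry the cell-binding domains of the trimer. Lama3, the alpha chain of the epithelial laminin that hemidesmosomes bind, and Lama1 rose from day 21 to day 42 while Lama4, the chain of vessel and fat cell basement membranes, fell slightly. Lama3 ranged from 8.03 through a median of 8.51 to 9.03 at day 21 and read 9.52, 9.07, 9.29, 9.36 and 8.97 at day 42. It rose by 0.73 ± 0.15 log2 (1.66-fold, limma adjusted p = 0.000582), with 0.71 within batch 1 and 0.76 within batch 2. Lamb3, the beta chain of the same trimer, ranged from 6.31 through 7.18 to 8.02 and read 8.03, 8.41, 8.19, 7.90 and 7.79. Its groups met only through day 21 array 8, and the rise was 0.89 ± 0.18 (1.85-fold, 0.000436).

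Lama1 rose by 0.85 ± 0.29 log2 (limma adjusted p = 0.024), a call lost without day 42 array 1, 3 or 4, with differences of 0.76 (0.0702), 0.83 (0.0503) and 0.78 (0.0681). Lamc3, which encodes the γ3 chain, was higher in every day 42 array, at 7.75 to 8.16 against 7.24 to 7.61, by 0.43 ± 0.09 (0.000806). Lama4 fell by 0.30 log2 (SE 0.10, 0.0244), a call lost without day 42 array 1 (-0.29, 0.0596) or array 2 (-0.25, 0.0882). Without the arrays of high muscle markers the calls of Lama1 (0.64, 0.244) and Lama4 (-0.28, 0.154) were lost. Endothelial markers (5 of 8 lower) and fat cell markers (11 of 11 lower) fell at the same step, and their part in the Lama4 result was not tested. The chains of wide distribution did not pass the test: Lama2 differed by 0.26 ± 0.17, Lama5 by 0.27 ± 0.11, Lamb2 by 0.01 ± 0.12 and Lamc1 by -0.03 ± 0.10. Over the 9 laminin genes 4 rose and 1 fell, where 17.1% of all genes tested rose and 15.2% fell. Their median difference was 0.27 beside 0.00 over all genes tested.

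Nulliparous glands had less Lamc1 and Lama4 transcript than day 63 glands. Lamc1 read 10.90, 11.06 and 10.54 in nulliparous batch 1 arrays against 11.37, 11.37 and 11.45 in the day 63 arrays of that batch, and fell by 0.50 log2 (SE 0.12, limma adjusted p = 0.0186). Lama4 read 11.48, 11.42 and 10.61 against 11.87, 11.75 and 11.80, and fell by 0.47 (SE 0.13, 0.0371). Within batch 1 the differences were -0.56 for Lamc1 (0.0761) and -0.64 for Lama4 (0.0574). With no batch term they were -1.42 (0.0626) and -1.35 (0.0739). Fibroblast markers were lower at the same step for 3 of 8 genes, with a median difference of -0.37, and with their mean as a covariate the differences were -0.26 for Lamc1 (0.251) and -0.32 for Lama4 (0.233). Nulliparous array 3, the lowest of both in batch 1, had a lymphocyte mean of 9.71. Without it the differences were -0.39 (0.115) and -0.25 (0.223). The Lama4 call was also lost without day 63 array 1, 2 or 3 (-0.42 with 0.0956, -0.46 with 0.0878 and -0.45 with 0.111), and the Lamc1 call without day 63 array 3 (-0.46 with 0.071). Of 16 alternatives other than leaving out 1 array, 9 lost the Lama4 call, the mean of its probe sets among them, and 3 lost that of Lamc1. Lama3 differed by -0.55 ± 0.20 (0.122), its partner Lamb3 by 0.67 ± 0.23 (0.109) and Lama5 by -0.01 ± 0.15 (0.978). From day 42 to day 63 no laminin was called, with Lamc1 at -0.27 ± 0.11 (0.234), Lama5 at -0.22 ± 0.13, Lama4 at -0.13 ± 0.12, Lama3 at 0.07 ± 0.18 and Lamb3 at -0.01 ± 0.21.

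Laminin transcripts were lower in lactation than at day 63. Of the 9 laminin genes, 6 fell and none rose against day 63, where 16.9% of all genes tested fell and 23.8% rose. Their median difference was -1.0 beside 0.06 over all genes tested. Lamc1, the gamma chain of most laminins, read 10.14, 10.31 and 10.17 in lactation and 11.37, 11.37, 11.45, 11.28 and 11.06 at day 63. It fell by 1.05 log2 (SE 0.14, 2.07-fold, limma adjusted p = 8.57e-07), and by 0.96 within batch 2. Lamb2, the β2 chain, read 9.44, 9.26 and 9.10 against 10.46 and 10.66 in batch 2 and 10.92 to 11.29 in batch 1, and fell by 1.25 (SE 0.17, 2.37-fold, 9.89e-07). No lactation array of either gene reached a day 63 array.

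Lama2, the chain of muscle, nerve and stromal basement membranes, read 9.88, 9.29 and 9.18 in lactation against 10.57 to 10.92 at day 63, and fell by 1.45 log2 (SE 0.24, 2.73-fold, limma adjusted p = 2.87e-05). Lama3 read 8.45, 7.58 and 7.84 against 8.85, 9.53, 9.47, 9.36 and 9.35, and fell by 1.30 (SE 0.22, 2.46-fold, 2.99e-05). Lama4 read 10.65, 10.47 and 10.44 against 11.33 to 11.87, and fell by 1.00 (SE 0.15, 4.13e-06). Lamc3 fell by 0.56 (SE 0.13, 0.00126). The beta chain Lamb3, the partner of Lama3, was not called: it read 8.01, 7.90 and 7.31 in lactation and 7.95 and 7.66 in the day 63 arrays of batch 2, a difference of -0.12 ± 0.26 (0.747). Lama5, the other alpha chain of adult epithelium, differed by -0.16 ± 0.16 (0.468) and Lama1 by -0.12 ± 0.41 (0.845).

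**Figure D4:**
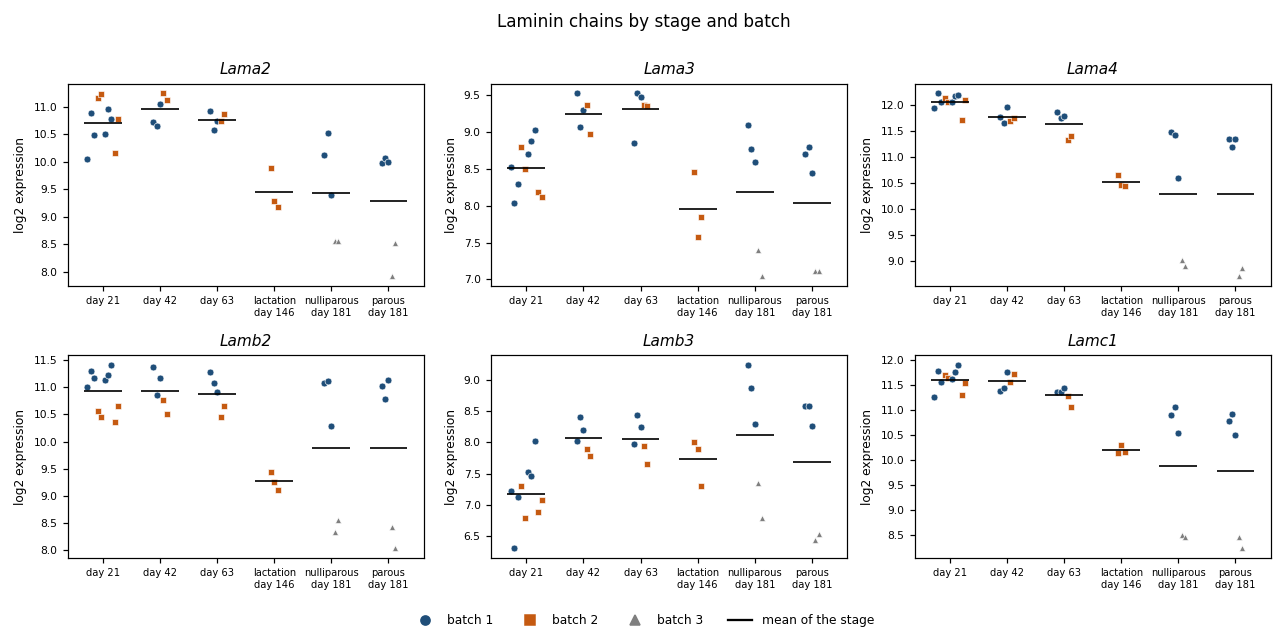
Log2 expression of Lama2, Lama3, Lama4, Lamb2, Lamb3 and Lamc1 by stage, 1 point per array with its batch as colour and shape, and a line at the stage mean. Lactation arrays (batch 2) lie below all day 63 arrays for every gene shown except Lamb3. The adult means are pulled down by the batch 3 points, which lie below batch 1 for each of the 6 genes.

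Parous glands had more Lamb2, Lama4 and Lamc1 transcript than lactating glands in the model with batch. Lamb2 read 11.02, 10.79 and 11.13 in batch 1, above lactation, and 8.43 and 8.03 in batch 3, below it. The rise was 1.03 ± 0.19 log2 (2.04-fold, limma adjusted p = 0.000146). Lama4 was higher by 0.54 ± 0.17 (0.0145) and Lamc1 by 0.44 ± 0.16 (0.0324). The direction for the last pair rests on the batch term: with no batch in the model the differences were -0.22 for Lama4 and -0.43 for Lamc1. That of Lamb2 was then 0.61 (0.443). The Lamc1 call was also lost without lactation array 1 or 3 (0.41 with 0.0749 and 0.42 with 0.0742) or parous array 1 or 2 (0.42 with 0.0627 and 0.37 with 0.0863). Of 14 alternatives other than leaving out 1 array, 13 kept the Lamb2 call, 10 that of Lama4 and 8 that of Lamc1. Lama4 and Lamc1 both lost theirs with batch as a random block and without the arrays of high muscle markers. Lama2 differed by 0.71 ± 0.28 (0.0524), Lama3 by 0.60 ± 0.25 (0.0653), Lama5 by 0.14 ± 0.19 (0.585) and Lamb3 by 0.36 ± 0.30 (0.37).

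Fibroblast markers moved with the lactation results. All 8 of them fell from day 63 to lactation, with a median difference of -2.02, and all 8 rose from lactation to parous glands, with a median of 0.97. With the fibroblast mean as a covariate none of the 17 calls of lactation against day 63 was kept. The differences then were -0.13 for Lamc1 (0.812), -0.86 for Lamb2 (0.171), -0.41 for Lama4 (0.462), -0.45 for Lama3 (0.61), -0.40 for Itga11 (0.737), 0.58 for Itga6 (0.162) and 0.76 for Itgb8 (0.456). That mean separates lactation from day 63 without overlap, so the covariate and the stage can hardly be told apart here. In parous against lactation, its use lost the calls of Itga11 (0.43, 0.548), Itga7 (0.62, 0.142), Itgax (-0.43, 0.274) and Itgb8 (-1.17, 0.0579). The calls of Itgbl1, Lama4 and Lamc1 were lost as well, while Itga3, Itga6, Itga8, Itgb1bp1 and Lamb2 kept theirs. Fibroblast means of these groups overlap (10.49 to 11.63 in parous glands, 10.05 to 10.71 in lactation). Luminal markers also moved, 8 of 15 higher and 2 lower in lactation, with a median difference of 1.01, as did fat cell markers, 1 of 11 higher and 8 lower. With the luminal mean as a covariate 14 of the 17 calls of lactation against day 63 were kept, and those of Itga3 (0.38, 0.0661), Itga8 (0.22, 0.424) and Itgb8 (0.60, 0.0668) were lost. In parous against lactation 10 of the 12 calls were kept, and those of Itga3 (-0.41, 0.113) and Itga8 (-0.38, 0.271) were lost. The luminal mean of lactation arrays (10.08 to 10.78) overlaps neither that of day 63 (9.57 to 10.01) nor that of parous arrays (9.44 to 9.79). This covariate and the stage can therefore hardly be told apart either. Age differed as well, day 146 against day 63.

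Epithelial markers moved with the rises from day 21 to day 42. Of 15 luminal markers 14 rose, with a median of 1.45 log2, and of 8 basal markers 5 rose, with a median of 0.94. With the luminal mean as a covariate, Itga7 was the gene that kept its call (-1.11, limma adjusted p = 0.00133). The differences then were 0.16 for Itga3 (0.762), -0.31 for Itgb6 (0.658), 0.15 for Lama3 (0.834), 0.06 for Lamb3 (0.952), 0.27 for Itga8 (0.66) and 0.53 for Itgb5 (0.0828). With the lymphocyte mean in its place, the rises of Itga3 (0.54, 0.0211), Itga8 (0.55, 0.0255) and Itgb5 (0.57, 0.00251) kept their calls. Those of Itgb6 (0.56, 0.22), Itgb8 (0.25, 0.417), Lama1 (0.32, 0.556), Lama3, Lamb3 and Lamc3 lost theirs. Apart from day 21 array 8 (9.46), every day 21 array had a lower luminal mean than every day 42 array (9.35 to 9.93). The luminal covariate and the stage can therefore hardly be told apart. Whether cell content carried these changes was not tested.

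The name matches that are no subunits included Itgbl1, a secreted protein with integrin-like repeats. It read 9.19, 8.95 and 8.36 in lactation against 10.72, 10.02, 10.33, 10.51 and 10.41 at day 63, and fell by 1.82 log2 (SE 0.23, 3.54-fold, limma adjusted p = 4.11e-07). It was higher in parous glands than in lactation by 0.89 ± 0.26 (0.0104), or 0.65 (0.0744) without lactation array 3. Itgb1bp1, a cytoplasmic binder of the β1 tail, fell by 0.17 log2 from day 21 to day 42 (SE 0.06, 0.0363), a call lost when any of 8 of the 15 arrays was left out, with differences of -0.18 to -0.15. It fell by 0.41 from lactation to parous glands (SE 0.10, 0.00324) in the model with batch. With no batch term the difference was -0.07 (0.895), and both batch 3 parous arrays (10.25 and 10.63) lay above every lactation array (9.57 to 9.69). Itgb3bp, a centromere protein despite its name, passed the filter in 4 arrays, at 7.91 to 8.09 in batch 3, and was not called in any of the 6 comparisons.

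Partners of the laminins in the basement membrane moved with them in lactation. Where 40.7% of all genes tested were called (16.9% lower), 10 of the 12 tested partners fell and 2 rose against day 63. The nidogens, which link laminin to collagen IV, were among them, with Nid2 lower by 2.18 log2 (SE 0.20, limma adjusted p = 2.61e-09) and Nid1 by 1.54 (SE 0.16, 1.99e-08). Sparc, a collagen-binding matrix protein, fell by 1.49 (SE 0.09, 3.73e-13) and the collagen IV chain Col4a1 by 0.97 (SE 0.16, 2.92e-05). From lactation to parous glands 5 of the 12 rose and 2 fell, where 32.9% of all genes were called. Nid2 rose by 1.56, Nid1 by 0.98 and Sparc by 0.94, while the laminin-related netrin Ntn4 fell by 1.68. From day 21 to day 42, 1 rose (Agrn, 0.50) and 2 fell (Col4a3, -0.45, and Col4a4, -0.39), where 32.3% of all genes were called. Col4a1 fell by 0.57 from day 42 to day 63 (0.0285), and Col4a2 and Sparc were lower in nulliparous than in day 63 glands, by -0.51 (0.0379) and -0.31 (0.0224).

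Other laminin receptors and hemidesmosome proteins numbered 7 tested genes. From day 21 to day 42, 3 rose, where 32.3% of all genes tested were called. These were Col17a1, the hemidesmosomal collagen, by 1.17 ± 0.21 log2 (limma adjusted p = 0.00014), the tetraspanin Cd9 by 0.63 and the dystroglycan gene Dag1 by 0.28. In lactation, where 40.7% of all genes were called, Cd9 (0.82) and Dag1 (0.53) were higher. Bcam, the receptor of laminin α5, fell by 1.01 log2 (SE 0.14, 2.43e-06). From lactation to parous glands, where 32.9% of all genes were called, these 3 turned: Bcam rose by 1.20, Cd9 fell by 0.97 and Dag1 by 0.80.

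Integrin ligands other than laminin numbered 12 tested genes. Of these 5 rose and 3 fell from day 21 to day 42, where 32.3% of all genes tested were called. Cdh1 (E-cadherin, the ligand of αEβ7) rose by 1.35 ± 0.27 log2, fibronectin (Fn1) by 0.78 ± 0.14 (limma adjusted p = 9.2e-05) and Mfge8, a milk fat globule protein, by 0.56 ± 0.08, while Icam2, a ligand of LFA-1, fell by 0.80. In lactation 3 rose and 5 fell, where 40.7% of all genes were called. Fn1 fell by 2.06 (SE 0.20, 4.39e-09) and periostin (Postn) by 1.64, while osteopontin (Spp1) rose by 1.04 and Mfge8 by 0.77. From lactation to parous glands 4 rose and 4 fell, where 32.9% of all genes were called. Among them were Vcam1, the ligand of VLA-4, up by 2.33 ± 0.45 (0.000218), Fn1 up by 1.51, Postn up by 0.83 and Spp1 at -1.14. Madcam1, the ligand of α4β7, fell by 0.53 from day 42 to day 63 (0.0191).

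Cytoplasmic adaptors join integrins to actin. Of 18 such genes 2 rose and 4 fell from day 21 to day 42, where 32.3% of all genes tested were called. The epithelial kindlin Fermt1 rose by 0.98 ± 0.24 log2 (limma adjusted p = 0.00288) and its blood cell counterpart Fermt3 fell by 1.09 (SE 0.30, 0.00566). Zyx fell by 0.36 (SE 0.11, 0.011) and Parvg, the blood cell parvin, by 1.05. In lactation 3 rose and 4 fell, where 40.7% of all genes were called. The focal adhesion kinase gene Ptk2 differed by 0.42 and Kank2 by -0.61. From lactation to parous glands 2 rose and 4 fell, where 32.9% of all genes were called, with Ptk2 at -0.60, Parva at -0.48, Ilk at -0.32 and Kank2 at 0.60. In all of these comparisons the adaptors were called about as often as genes at large.

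Between parous and nulliparous glands of the same age no gene of the set was called by limma, none of the 32 had an unadjusted p under 0.05 (6.08% of all genes tested did), and no gene separated the groups without overlap. The differences ran from -0.43 for Lamb3 (95% interval -0.86 to 0.00) to 0.48 for Itgal (-0.50 to 1.45). The intervals were narrow for Itga6 (0.05, -0.13 to 0.23) and Lamc1 (-0.11, -0.34 to 0.12) and wide for the lymphocyte integrins, so that a difference of 1.45 log2 in Itgal still lay within its interval.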

How the data were processed

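Total RNA of whole glands was read on 33 arrays. The authors deposited a table of log2 values (36685 probe sets, 2.405 to 14.228), for which the submitters' processing notes name RMA and Affymetrix Expression Console (versions and genome build not given in the sources used here). RMA adjusts probe signals for background, brings the arrays to a common distribution and combines the probes of a set, so levels of different probe sets are not compared. The number of arrays limits the precision.

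Probe sets were named by the platform annotation. Groups, batch and kit came from the labels. A single model with 6 stages and 3 batches (25 residual degrees of freedom) was fitted to each gene across all arrays in limma 3.58.1 (R 4.3.3; lmFit and eBayes with an intensity trend). Tests were two-sided, and p-values were adjusted by Benjamini-Hochberg over the 10986 genes above 7.645 in at least 3 arrays. Genes with an adjusted p under 0.05 count as called, and "rose" and "fell" are used only of these. Errors are standard errors of the fit. The code was tested on simulated data. The genes and the lists (172 of 200 symbols matched) were chosen with earlier results of these data known. Within each role and comparison the text names up to 6 called members of smallest adjusted p, the dimer and trimer partners in any case, and up to 4 called genes of each partner list. Alternatives varied batch, filter, normalization, probe set choice, trend, the arrays used, and marker means as covariates. Promoter sequences are from RefSeq (GRCr8). Figures were drawn with matplotlib 3.10.9.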

Additional observations from a re-analysis of the deposited data

Results flagged for a closer look

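Of 160 sets of a gene in a group of 5 to 10 arrays, 8 held an array whose gap to its nearest neighbour was large for the range of the group by Dixon's 95% criterion, and chance alone gives about 1 in 20. In day 42 array 5, Itgal read 9.03 log2 against 8.01 to 8.05 in the other 4 arrays, and Itgb2 read 8.87 against 8.21 to 8.37. That array's lymphocyte marker mean was 8.24 against 6.82 to 7.0. In nulliparous array 3, with a lymphocyte mean of 9.71, Itga4 read 9.60 against 7.49 to 7.87. In day 42 array 4, with a skeletal muscle marker mean of 9.29, Itgbl1 read 10.69 against 9.52 to 9.85 and Lama5 read 8.80 against 9.34 to 9.50. In day 63 array 1, Itga1 read 9.69 against 10.06 to 10.14 and Lama3 read 8.85 against 9.35 to 9.53. In parous array 2, Itga1 read 9.56 against 9.80 to 9.83. What set these arrays apart was not tested.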

How the results depend on the processing

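The 29 genes called over stages numbered 23 to 30 under every alternative run, and parous against nulliparous glands gave 0 calls under all of its alternatives. The other counts moved as follows. With no batch term, day 42 against day 21 had 10 calls (18 with batch), day 63 against day 42 had 0 (1), lactation against day 63 had 7 (17) and parous against lactation had 6 (12). In nulliparous against day 63 glands the 2 calls became 1, with Lama4 lost, with batch as a random block, with no filter and with arrays centred on their median. The same held with the mean of the probe sets of a gene and with only the groups compared. Within batch 1 this comparison had 0 calls. With no batch term 2 genes were called there, but neither Lamc1 (-1.42) nor Lama4 (-1.35). Within batch 1 or batch 2 alone, day 63 against day 42 had 0 calls. Within batch 2, day 42 against day 21 had 4. In that comparison, 14 of the 18 calls were kept within batch 1, and all 18 kept their sign in both batches. With the luminal marker mean as a covariate it had 1 call, and with the lymphocyte mean 7, while day 63 against day 42 then had 3. The alternatives with fibroblast and skeletal muscle markers were chosen after seeing the data. With the fibroblast mean as a covariate, lactation against day 63 had 1 call, nulliparous against day 63 had 0 and day 63 against day 42 had 2. Without the arrays of high skeletal muscle markers, day 42 against day 21 had 10 calls and day 63 against day 42 had 2. With the skeletal muscle mean as a covariate no count moved by over 1.5 times. Leaving out each array in turn gave 14 to 19 calls for day 42 against day 21, 0 to 2 for day 63 against day 42, 0 to 2 for nulliparous against day 63, 14 to 18 for lactation against day 63 and 10 to 13 for parous against lactation. Of 532 such fits of the 50 called differences, 492 kept the call, 40 lost it and none changed sign. Of 788 other fits, 632 kept the call, 140 lost it and 16 changed sign. From day 21 to day 42 the sign turned with the luminal mean for Itgal (0.04), Itgb2 (0.14), Itgb6 (-0.31) and Lama1 (-0.56), and with the lymphocyte mean for Itgal (0.09), Itgb2 (0.15) and Itgb7 (0.02). From day 63 to lactation it turned with the fibroblast mean for Itga2 (0.68), Itga5 (0.07), Itgb5 (0.37), Itgbl1 (0.02) and Lama2 (0.56). From lactation to parous glands it turned with no batch term for Lama4 (-0.22) and Lamc1 (-0.43), and with the fibroblast mean for Itgbl1 (-0.16) and Lamc1 (-0.08). None of these 16 was past the threshold. The causes were not tested. Centring the arrays moved the median of all genes by at most 0.09 (lactation against day 63). A fit of parous and lactation arrays alone could not be made, as they share no batch. No paired analysis was possible because the replicate numbers follow the order of deposit and pair no animals.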
